A study of Mus musculus with 4 samples.

Results

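The nuclear receptor genes encode ligand-regulated and orphan transcription factors, most of which share a zinc-finger DNA-binding domain. These genes were followed here across a small study of reprogramming mouse fibroblasts. Members were taken by gene symbol: thyroid hormone (Thr), retinoic acid (Rar), retinoid X (Rxr), peroxisome proliferator-activated (Ppar), oestrogen (Esr), oestrogen-related alpha and gamma (Esrra, Esrrg), RAR-related orphan (Ror), vitamin D (Vdr) and progesterone (Pgr) receptors and the systematically named Nr genes, without Nr0b1. The rule found 41 genes of 22180 that the array names with a probe set of their own. Of these, 26 stood at or above the measuring floor on 1 or more arrays and 15 stood below it on all 4. The floor is the median of the probe sets with a single gene symbol, 6.64 to 6.67 on the log2 scale, and a single gene below it on all arrays is given no direction here.

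Total RNA from 4 mouse samples of strain Black6-129X1/SvJ, labelled as pooled male and female, was hybridised to 1 array each. Of these, 2 were bulk cultures of reprogrammable embryonic fibroblasts, which switch on reprogramming factors under doxycycline, both 6 days into induction. The first carried a knockdown against Firefly luciferase, which mouse cells lack, as the control, and the other is labelled Sumo2 knockdown (called the Sumo2 culture). The other 2 were stable induced pluripotent stem cell (iPSC) lines derived from Sumo2 knockdown fibroblasts and labelled 38 h and 10 day, a time whose meaning the labels do not give. Per the labels all 4 had ascorbic acid and doxycycline treatment and medium with fetal bovine serum. No condition had a replicate, the labels do not say how many clones a line sample holds, and in such bulk samples a smaller share of a cell type and less RNA per cell cannot be told apart.

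Sumo2 itself read 10.65 in the Firefly culture and 10.56 in the one labelled Sumo2 knockdown, so directions drawn from that culture rest on its label. In the 38 h and 10 day lines Sumo2 read 11.40 and 11.07, above both cultures. That difference of 0.63 (SE 0.15, limma adjusted p = 0.0151) passed the adjusted p but not 2-fold. Whether a knockdown was still active in the lines was not tested. The 10 pluripotency markers had a mean log2 level of 7.05 and 8.23 in the Firefly and Sumo2 day 6 cultures and 10.56 and 10.64 in the 38 h and 10 day lines, with 5, 7, 9 and 9 of the 10 at or above the floor and Dppa5a below it on all 4 arrays. The 10 fibroblast markers averaged 8.32, 7.96, 8.14 and 7.66 in the same order, with Lum below the floor on all 4 arrays. Of the 9 measured, 1 was called lower in the lines (Thy1, at 11.71, 11.23, 8.85 and 8.69) and 2 higher (Postn, at 6.58, 6.00, 9.05 and 8.27, and Pdgfra, at 5.22, 6.10, 7.56 and 6.76). Not 1 of 6 adipocyte markers with a probe set reached the floor on any array. The part of cell makeup in the results on receptors was not tested.

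A nuclear receptor typically binds DNA as a monomer, a homodimer or a heterodimer with a retinoid X receptor, at 1 or more copies of a short half-site, and its ligand decides whether coactivators or corepressors are held there. Several have known roles around pluripotency: Nr5a2 activates Pou5f1 and can stand in for it in fibroblast reprogramming, while Nr6a1 and the COUP factor Nr2f2 repress Pou5f1 as pluripotent cells differentiate. Retinoic acid, acting through the Rar proteins, is a common inducer of that differentiation.

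The first comparison asked how receptor transcripts differed between the iPSC lines and the day 6 cultures. Most were lower in the lines. Nr2f2, Thrb, Thra, Nr1d1, Nr2c1 and Nr4a2 fell past 2-fold as read at an adjusted p under 0.05 (limma, adjusted over all 12735 measured genes), and Nr5a2 alone rose. For Thrb and Nr4a2 both lines were below the floor, and counted from it their falls were 1.24-fold and 1.75-fold, short of 2-fold. These calls are 6 lower and 1 higher of 26 measured receptors, where 9.12% of all measured genes were called lower and 14.3% higher. Dropping the size rule, 9 receptors were lower and 2 higher at an adjusted p under 0.05, with 17.8% and 29.0% of all measured genes as background, and 15 did not pass; in both directions together that is 11 of 26, beside 46.8% of all measured genes. At an unadjusted p under 0.05 the count was also 11, beside 55.4% of all measured genes. Without the Firefly array 2 receptors were called lower and 0 higher, by limma.

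By direction alone, 23 of the 26 measured receptors were lower in the lines, with a median log2 difference of -0.42, whereas 41.9% of all measured genes were lower and their median was 0.15. Since a gene can enter the measured set through its higher arrays only, the same was counted over all 41 receptors: 36 were lower and 5 higher, with a median of -0.31, against 55.9% lower and a median of -0.06 among all 22180 genes. Both lines lay below both day 6 cultures for 28 of 41 receptors (39.4% of all genes) and above both for 3 (31.5% of all genes); for the other 10 the pairs overlapped. Among the 26 measured receptors these counts were 18 and 2, beside 32.7% and 46.8% of measured genes. The scaling matters here: cyclic loess moved the median of all measured genes from 0.15 to 0.03 and that of the receptors to -0.54, with 24 of 26 lower and Rara the only one to change sign. The test had 2 residual degrees of freedom. Each pair joins arrays of different conditions, so that the spread includes any effect of the knockdown label and of the line. Both lines came from Sumo2 knockdown fibroblasts, while the Firefly culture does not carry that label. The difference itself can therefore also hold an effect of the knockdown, which cannot be fully told apart from cell state.

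**Figure D1:**
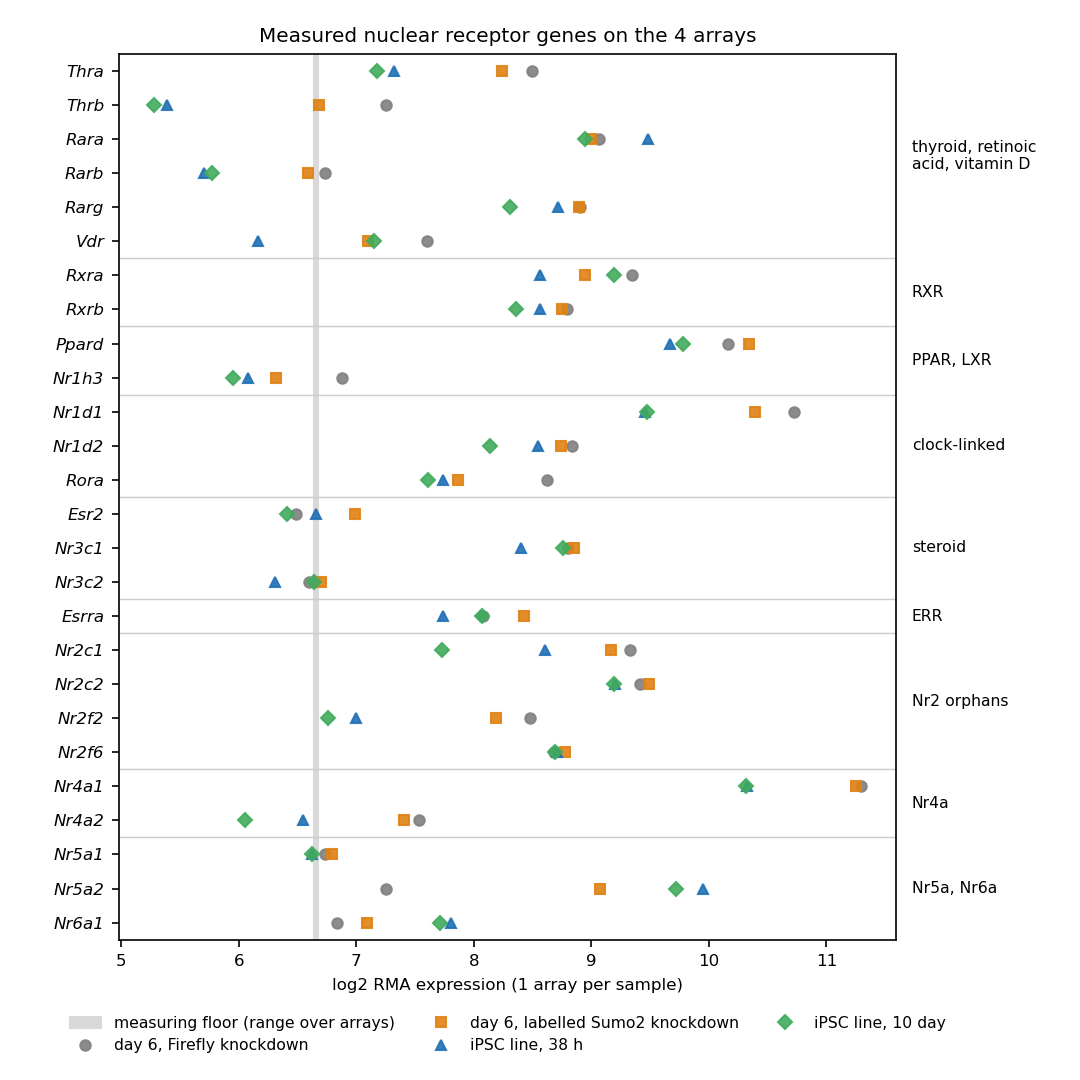
Log2 RMA expression (x axis) of the 26 measured nuclear receptor genes (rows, grouped by role), with 1 point per array and the range of the measuring floor as a grey band. Nr5a2 and Nr6a1 have both iPSC points to the right of both day 6 points, while Nr2f2, Thra, Thrb, Nr1d1 and Nr4a1 have them well to the left; levels of different genes are not comparable.

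Nr5a2, the orphan receptor also called LRH-1, read 7.25 in the Firefly culture, 9.08 in the culture labelled Sumo2 knockdown, 9.95 in the 38 h line and 9.72 in the 10 day line. The Firefly culture was far below the other 3 arrays, and the groups did not overlap. From day 6 to iPSC it rose 3.19-fold (a log2 difference of 1.67 with SE 0.54, at a limma adjusted p of 0.0427). The call is narrow: without the Firefly array the difference was 0.76 (limma adjusted p = 0.0572), without the Sumo2 array 2.58 (limma adjusted p = 0.00551), without the 38 h array 1.56 (limma adjusted p = 0.054), and after cyclic loess 1.48 (limma adjusted p = 0.0625). The pluripotency markers given above were also lowest in the Firefly culture and highest in the lines, and their part in this result was not tested.

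Nr6a1, the germ cell nuclear factor, went the same way in smaller steps, at 6.83, 7.09, 7.80 and 7.71 in the order Firefly, Sumo2, 38 h and 10 day. All 4 values were above the floor and both lines exceeded both cultures. Its difference of 0.80 (1.74-fold, SE 0.18, limma adjusted p = 0.0129) passed the adjusted p but not 2-fold, and without the Firefly array it was 0.67 (limma adjusted p = 0.0884). Nr5a1, the steroidogenic factor that neighbours Nr6a1 on chromosome 2, lay near the floor throughout, at 6.73, 6.80, 6.63 and 6.63.

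RefSeq lists promoters for 38 of the 41 receptors, 57 start sites in all, and the 250 bases before each start were searched on both strands for the nuclear receptor half-site AGGTCA. It was present before 10 of the 57 member starts (17.5%), from 9 genes, and before 14.0% of all 32851 starts in the table. The longer AAGGTCA, which contains it, was before 3 member starts (5.26%, against 4.08% of all). Thra, Nr5a1 and Nr3c1 have no entry. Among the receptors with an adjusted p under 0.05 other than Thra, the half-site was found for Nr5a2, Nr6a1 and Thrb. The upstream sequences of the receptors that were higher are shown because they hold it, in GRCm38.p6, 5′ to 3′ on the gene's strand, with the half-site or its reverse complement TGACCT in capitals. A match is a description of letters, not a site in use.
Nr5a2, chr1:136960449-136960698, minus strand: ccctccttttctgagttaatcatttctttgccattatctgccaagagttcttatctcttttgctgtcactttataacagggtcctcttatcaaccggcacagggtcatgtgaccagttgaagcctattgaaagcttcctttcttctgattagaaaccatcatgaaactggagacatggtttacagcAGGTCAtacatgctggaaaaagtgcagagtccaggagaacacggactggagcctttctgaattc
Nr6a1, chr2:38784516-38784765, minus strand: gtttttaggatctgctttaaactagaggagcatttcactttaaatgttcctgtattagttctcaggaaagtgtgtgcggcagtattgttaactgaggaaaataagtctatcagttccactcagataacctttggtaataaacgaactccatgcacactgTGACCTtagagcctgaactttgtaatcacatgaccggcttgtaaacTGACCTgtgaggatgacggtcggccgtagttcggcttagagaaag

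The match before this Nr5a2 start begins at base -64, and those before this Nr6a1 start begin at -91 and -45. Each gene has 1 further listed start, and neither of these had a match. Which start was in use cannot be read from a probe set value.

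Receptors for thyroid hormone fell together. Thra read 8.50, 8.24, 7.32 and 7.17 in the order Firefly, Sumo2, 38 h and 10 day, and fell 2.17-fold (log2 difference -1.12, SE 0.18, limma adjusted p = 0.00379). Thrb read 7.25, 6.69, 5.39 and 5.28 and fell by 1.64 as read (SE 0.27, limma adjusted p = 0.00432). Both lines were below the floor for Thrb, so counted from the floor its fall was at least 1.24-fold. Neither gene's groups overlapped. Without the Firefly array the Thra difference was -0.99, just short of 2-fold (limma adjusted p = 0.0404). In the annotation Thra overlaps Nr1d1 on chromosome 11, so their values are uncertain where probes cannot tell the genes apart.

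No retinoic acid receptor was called. Rarb, which retinoic acid itself induces, read 6.73, 6.59, 5.70 and 5.77, with only the Firefly culture above the floor and both lines below both cultures. Its difference of -0.92 (SE 0.22, limma adjusted p = 0.015) passed the adjusted p but not 2-fold, and was at least 1.03-fold counted from the floor. Without the Firefly array Rarb was not measured. Rara, the broadly expressed form, was at 9.07, 8.99, 9.48 and 8.95, with the 38 h line highest and the pairs overlapping (0.18, SE 0.22, limma adjusted p = 0.503; -0.01 after cyclic loess). Rarg read 8.90 in both day 6 cultures, then 8.71 and 8.31, and did not pass (-0.39, SE 0.19, limma adjusted p = 0.14).

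Vdr, the vitamin D receptor, went from 7.60 and 7.10 to 6.16 and 7.15, so that the 10 day line sat between the day 6 values and the 38 h line lay below the floor. Its difference did not pass (-0.69, SE 0.355, limma adjusted p = 0.151). It was -1.19 without the 10 day line (limma adjusted p = 0.0102), -0.20 without the 38 h line (limma adjusted p = 0.59) and -0.44 without the Firefly culture (limma adjusted p = 0.507), so the value depends on which array is left out.

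The upstream sequences of the 2 members of this group that carry a marked motif follow. For Thrb the capitals mark the half-site, and for Rarb a pair of related half-sites written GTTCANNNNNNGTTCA, searched on both strands, which lies in the stretch known as the retinoic acid response element of this promoter. That spaced pair was before 1 of the 57 member starts and before 0.0670% of all 32851 starts (22 of them).
Thrb, chr14:17660710-17660959, plus strand: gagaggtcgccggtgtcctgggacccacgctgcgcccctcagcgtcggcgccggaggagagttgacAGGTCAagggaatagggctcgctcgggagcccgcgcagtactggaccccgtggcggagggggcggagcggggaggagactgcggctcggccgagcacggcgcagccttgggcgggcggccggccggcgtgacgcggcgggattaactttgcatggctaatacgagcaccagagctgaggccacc
Rarb, chr14:16575477-16575726, minus strand: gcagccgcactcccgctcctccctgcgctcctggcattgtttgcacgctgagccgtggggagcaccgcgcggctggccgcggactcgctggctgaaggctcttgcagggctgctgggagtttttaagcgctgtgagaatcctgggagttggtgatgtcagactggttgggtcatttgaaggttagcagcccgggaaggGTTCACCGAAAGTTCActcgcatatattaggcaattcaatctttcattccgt

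The Rarb pair begins at base -52 and the Thrb half-site at -184. A further listed Thrb start had no match. Rarb and Thrb are next to each other on chromosome 14 with 0 protein-coding genes between them, and Nr1d2 follows with 1 between. All 3 were lower in both lines than in both cultures, as were 32.7% of all measured genes. Nr1d2 did not pass, and both lines were below the floor for Rarb and Thrb. Whether their position matters was not tested.

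The 3 measured clock-linked receptors were lower in the lines, as were 41.9% of all measured genes. Of the 3 receptors 1 was called, beside 9.12% of all measured genes called lower. Nr1d1, the haem-binding repressor REV-ERB alpha, read 10.72, 10.40, 9.46 and 9.47 and fell 2.13-fold (log2 difference -1.09, SE 0.17, limma adjusted p = 0.0034). Between the lines it differed by 0.01, and both lay far from both cultures. Without the Firefly array the difference was -0.93 (limma adjusted p = 0.0274). Nr1d2, its paralogue, read 8.84, 8.74, 8.55 and 8.14 and did not pass (-0.45, SE 0.195, limma adjusted p = 0.103). Rora, an activator at the same DNA element, was at 8.63 in the Firefly culture and 7.87, 7.74 and 7.61 on the other arrays (-0.57, SE 0.265, limma adjusted p = 0.121). Its difference was -0.95 without the Sumo2 array (limma adjusted p = 0.0307) and -0.19 without the Firefly array (limma adjusted p = 0.529).

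In the Nr2 group of orphan receptors, 2 of 4 measured members fell, beside 9.12% of all measured genes called lower. Nr2f2, known as COUP-TFII and a mesenchymal and venous regulator, read 8.48, 8.19, 7.00 and 6.76. The lines stood more than 1 log2 unit below the cultures, and it fell 2.73-fold (log2 difference -1.45, SE 0.19, limma adjusted p = 0.00199). Leaving out any 1 array kept that call, with differences of -1.59 to -1.31. Nr2c1, the testicular receptor TR2, read 9.33, 9.17, 8.60 and 7.73 and fell 2.12-fold (-1.08, SE 0.29, limma adjusted p = 0.0244). The 10 day line was well below the 38 h line, and the call was lost without the Firefly, the Sumo2 or the 10 day array (limma adjusted p = 0.141, 0.0898 and 0.0558; -0.65 without the 10 day array). Its paralogue Nr2c2 read 9.41, 9.49, 9.20 and 9.19 (-0.25, SE 0.15, limma adjusted p = 0.215). Nr2f6 was nearly level at 8.68, 8.78, 8.71 and 8.69.

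The Nr4a receptors are immediate early genes that act without a known ligand. Both measured members were lower in the lines, as were 41.9% of all measured genes. Nr4a1, also called Nur77, read 11.30 and 11.25 in the cultures and 10.32 in both lines. The pairs were tight and well apart, and the difference of -0.96 (SE 0.12, limma adjusted p = 0.0017) came to 1.94-fold, short of the size rule; after cyclic loess it was -1.12. Nr4a2, or Nurr1, read 7.53, 7.41, 6.55 and 6.05 and fell 2.25-fold as read (-1.17, SE 0.23, limma adjusted p = 0.00777). Both lines were below the floor, so the fall was at least 1.75-fold counted from it, and the call was lost without the Firefly array (limma adjusted p = 0.0681) and without the 10 day array (-0.92).

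**Figure D2:**
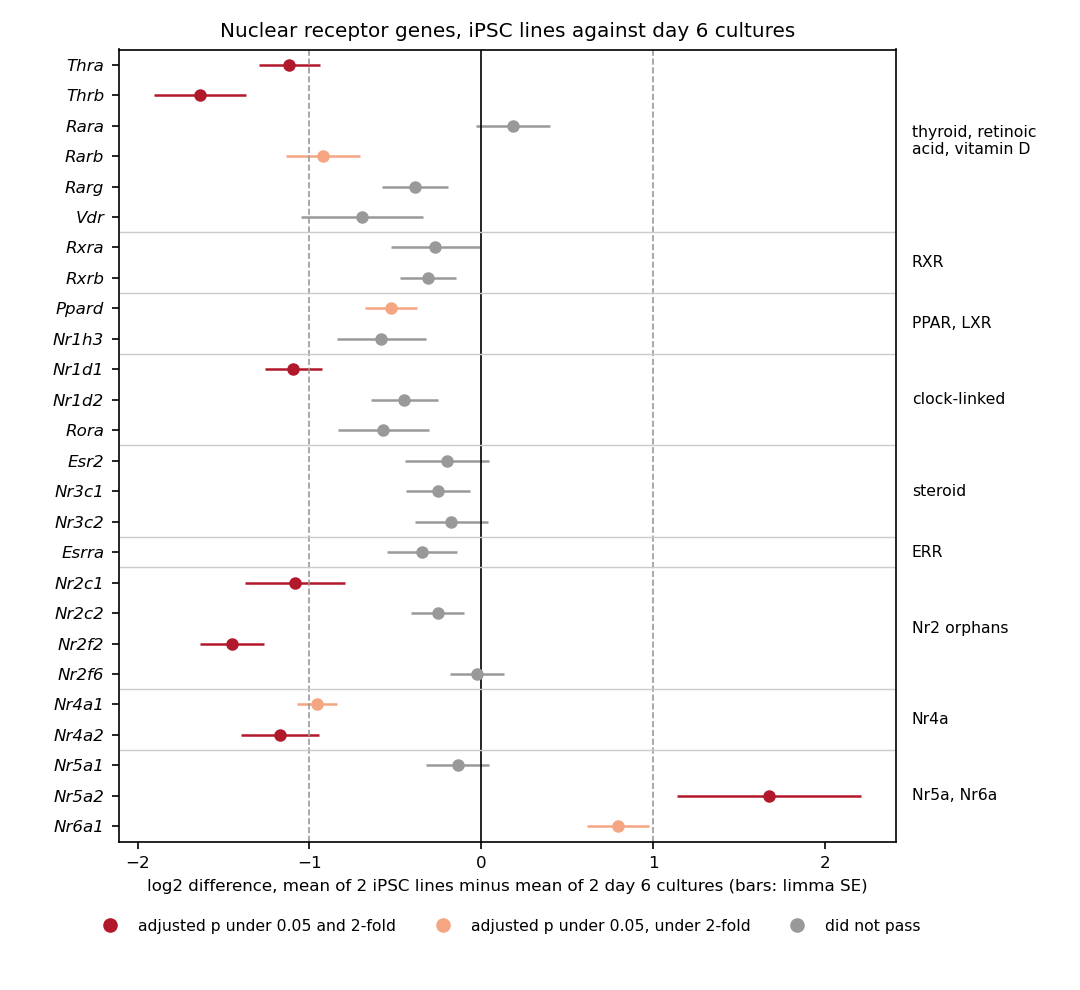
Log2 difference between the mean of the 2 iPSC lines and the mean of the 2 day 6 cultures (x axis) for the 26 measured receptors, with the limma standard error as bars and dashed lines at 2-fold. Nr5a2, at 1.67, has the widest bar (SE 0.54); 23 of the 26 points lie to the left of 0.

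Retinoid X receptors, the shared partners of many members, differed little. Rxra read 9.34, 8.95, 8.56 and 9.19, with the 10 day line inside the day 6 range (-0.27, SE 0.26, limma adjusted p = 0.42). Rxrb read 8.79, 8.75, 8.56 and 8.36 (-0.31, SE 0.165, limma adjusted p = 0.164). Among the fatty acid and sterol sensors, Ppard read 10.16, 10.34, 9.67 and 9.78 and passed the adjusted p but not 2-fold (-0.53, SE 0.15, limma adjusted p = 0.0304). No fit without 1 of the arrays kept that (limma adjusted p = 0.0543 to 0.111). Nr1h3, the oxysterol receptor LXR alpha, was above the floor only in the Firefly culture, at 6.87, with 6.32, 6.08 and 5.95 on the others.

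Steroid receptors did not pass in any case. Nr3c1, the glucocorticoid receptor, read 8.81, 8.85, 8.40 and 8.76 (-0.25, SE 0.185, limma adjusted p = 0.297). Nr3c2 for mineralocorticoids and Esr2 for oestrogen lay around the floor, at 6.31 to 6.70 and 6.41 to 6.99. Esrra, a regulator of mitochondrial genes, was highest in the Sumo2 culture (8.08, 8.43, 7.74 and 8.07; -0.35, SE 0.20, limma adjusted p = 0.202).

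The 15 receptors below the floor on all 4 arrays were Esr1, Esrrg, Nr0b2, Nr1h4, Nr1h5, Nr1i2, Nr1i3, Nr2e1, Nr2f1, Nr4a3, Pgr, Ppara, Pparg, Rorb and Rxrg, with values from 4.26 to 6.52. They include the adipocyte regulator Pparg (5.65, 5.63, 5.58 and 5.48), the bile acid receptor Nr1h4 and the xenobiotic sensors Nr1i2 and Nr1i3. A value below the floor is no proof that a transcript was missing.

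The second comparison set the culture labelled Sumo2 knockdown against the Firefly control at day 6, with 1 array each and so no test. Among the receptors of the rule, Nr5a2 was the one at least 2-fold apart, 3.54-fold higher (7.25 against 9.08). That is 1 of 26 measured receptors, where 0.945% of the 11740 genes measured on these arrays passed 2-fold upwards, 0.230% downwards and 1.18% either way; no receptor was 2-fold lower. At 1.5-fold, Rora joined on the lower side, at 59.1% of the control (background 2.81% lower, 4.09% higher). As a whole, 10 measured receptors were higher and 16 lower, where 46.3% of all measured genes were lower. Their median was -0.06, beside 0.02 for all measured genes.

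Sizes were mostly small. The middle absolute log2 difference was 0.17 among measured receptors and 0.19 among all measured genes. The 6 receptors for thyroid hormone, retinoic acid and vitamin D were all lower in the Sumo2 culture, where 46.3% of all measured genes were lower. They ran from -0.57 for Thrb to -0.01 for Rarg, but 0 of them reached 1.5-fold. Vdr stood at 70.7% and Thrb at 67.6% of the control, and Rxra at 75.9%. All 7 fibroblast markers measured on these arrays were lower in the Sumo2 culture too, from -0.88 to -0.43. All 7 measured pluripotency markers were higher, from 0.02 to 3.07. The part of cell makeup in these directions was not tested. The 3 measured steroid receptors were all higher, where 6308 of all 11740 measured genes were higher. They differed by 0.05 for Nr3c1 up to 0.50 for Esr2, which lay below the floor in the control.

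The third comparison, between the iPSC lines, also had 1 array each. Of 20 measured receptors, 6 were higher and 14 lower in the 10 day line, where 52.5% of all measured genes were lower. Of these receptors 0 reached 2-fold (background 3.22%, with 2.19% higher and 1.03% lower). Vdr came closest as read, higher by 0.99 in the 10 day line (6.16 against 7.15; 1.01 after cyclic loess), but the 38 h value is below the floor and the difference counted from the floor was 0.50. Nr2c1 was 1.83-fold lower in the 10 day line (8.60 against 7.73) and Rxra 1.55-fold higher (8.56 against 9.19); these pass a 1.5-fold rule, as Vdr does as read but not from the floor, with backgrounds of 6.44% higher and 4.11% lower. Rara was 1.45-fold lower in the 10 day line. Nr1d1, Nr4a1 and Nr2c2 differed by 0.01 or less between the lines, after rounding.

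**Figure D3:**
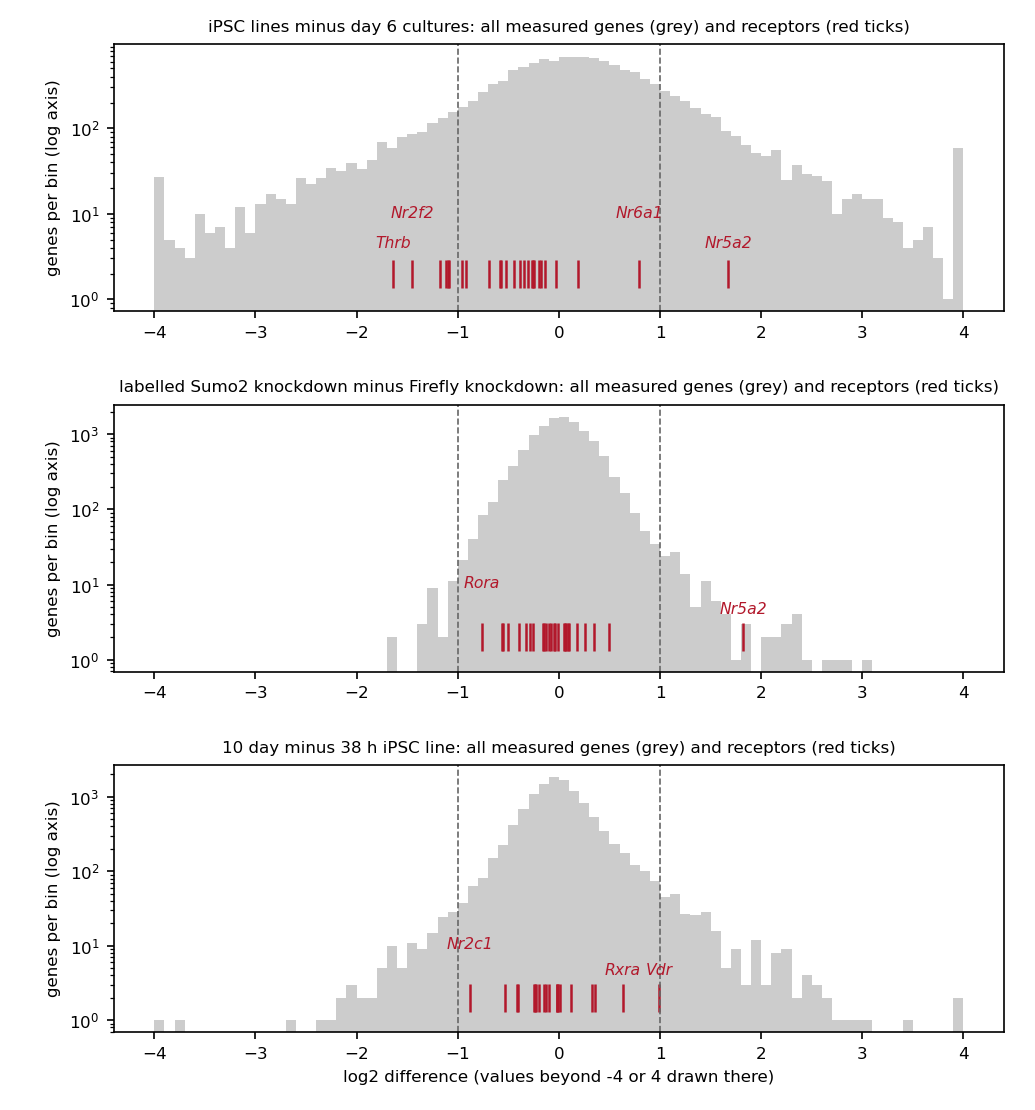
Distribution of log2 differences over all measured genes (grey bars in bins of equal width, counts on a log axis) with the measured receptors as red ticks, for the iPSC lines minus the day 6 cultures, the culture labelled Sumo2 knockdown minus Firefly, and the 10 day minus the 38 h line. Dashed lines mark 2-fold: in the middle panel Nr5a2 is the only receptor past it, and in the lowest panel Vdr reaches 0.99 as read.

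Proteins that receptors recruit were followed through lists, whose counts of calls stand beside the 14.3% of all measured genes called higher and 9.12% called lower. Of 13 measured coactivators, 1 was called higher in the lines and 0 lower (median 0.21): Ncoa3, the steroid receptor coactivator SRC-3, read 9.03, 9.25, 10.99 and 11.17 and rose by 1.94 (SE 0.16, limma adjusted p = 0.0005). Both lines were far above both cultures. Of 12 measured corepressor genes, 2 were called higher and 0 lower (median 0.16): Sirt1, a deacetylase, rose by 1.23 (SE 0.175, limma adjusted p = 0.00268), and Kdm1a, the demethylase LSD1, by 1.10 (SE 0.14, limma adjusted p = 0.00197). The median of all measured genes was 0.15, close to both lists, and the 2 corepressors are 16.7% of their list, near the share of all genes.

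Among retinoic acid targets and enzymes, 6 of 12 measured were called lower and 1 higher, beside 9.12% and 14.3% of all measured genes, with a median of -0.87. Over all 18 genes of the list, which include those below the floor, 15 were lower and the median was -0.23, beside -0.06 for all genes. Crabp2, a retinoic acid carrier, read 10.44, 9.78, 7.62 and 7.78 and fell by 2.41 (SE 0.25, limma adjusted p = 0.000903). Dhrs3, which turns retinal back into retinol, fell by 2.22 (SE 0.31, limma adjusted p = 0.00249), and Rdh10, which makes retinal, fell by 2.05 (SE 0.19, limma adjusted p = 0.000754). Aldh1a1, which makes retinoic acid, fell by 1.83 as read, or by 1.30 from the floor (SE 0.18, limma adjusted p = 0.000789). The germ cell gene Stra8, named after its value was seen, was the one called higher, with only the 10 day line above the floor, at 6.70, and a difference of 0.02 from it. At day 6, all 11 measured genes of the list were lower in the Sumo2 culture (46.3% of all measured genes), from -0.66 to -0.01 and with 0 at 2-fold. Over all 18 genes 13 were lower and 5 higher. The 7 measured fibroblast markers were likewise all lower in that culture, from -0.88 to -0.43, so this direction was not particular to the list.

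Core clock genes went both ways. Of 15 measured, 3 were called lower and 2 higher (median 0.27). Ciart rose by 1.53 (SE 0.18, limma adjusted p = 0.00157) and Cry1, a repressor of the clock, by 1.46 as read (SE 0.20, limma adjusted p = 0.00228). Dbp, an output gene, fell by 1.42 (SE 0.24, limma adjusted p = 0.00503). Clock itself was also called lower, at 11.17, 10.97, 9.88 and 9.87 in the order Firefly, Sumo2, 38 h and 10 day. Its difference was -1.19 (SE 0.14, limma adjusted p = 0.0014). Npas2, a relative of Clock, fell by 1.29 as read (SE 0.31, limma adjusted p = 0.0163), with both lines below the floor and a fall of 0.47 counted from it.

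Among targets of the steroid and lipid receptors, 3 of 11 measured glucocorticoid targets were called higher and 1 lower, beside 14.3% and 9.12% of all measured genes (median 0.77; 0.44 over all 14 genes of the list), and Nr3c1 itself did not pass. Sgk1, a kinase, rose by 3.45 as read and 3.30 from the floor (SE 0.23, limma adjusted p = 0.00028), and Fkbp5, a chaperone of the receptor, by 1.65 (SE 0.18, limma adjusted p = 0.00107), while Cebpd fell by 1.72 as read and by 1.15 from the floor (SE 0.23, limma adjusted p = 0.0023). Errfi1, a feedback inhibitor of growth factor receptors, rose by 1.04 (SE 0.165, limma adjusted p = 0.00389). Of 8 measured PPAR targets 2 were called higher, beside 14.3% of all measured genes (median 0.35; 0.16 over all 13 genes of the list): Pdk4, which restrains glucose oxidation, by 1.31 (SE 0.23, limma adjusted p = 0.00574) and Acadm, of fatty acid oxidation, by 1.17 (SE 0.14, limma adjusted p = 0.00157).

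The 9 measured LXR and FXR targets split, 2 higher and 2 lower (median 0.23; 0.07 over all 11 genes of the list). The cholesterol exporter Abca1 read 11.33, 10.97, 7.55 and 8.03 and fell by 3.36 (SE 0.23, limma adjusted p = 0.000289), and Smpdl3a fell by 2.58 (SE 0.19, limma adjusted p = 0.000375). Apoe, a lipid carrier, rose by 2.525 (SE 0.352, limma adjusted p = 0.00249) and the exporter Abcg1 by 1.88 (SE 0.23, limma adjusted p = 0.00161). Apoe was also the one member of this list 2-fold apart at day 6, higher by 1.11 in the Sumo2 culture. Of 10 measured ERR and mitochondrial genes 0 were called (median 0.12, or 0.03 over all 11 genes of the list; 4 were higher at an adjusted p under 0.05 by limma), and of the vitamin D and thyroid targets only Thrsp and Hr were measured, near the floor.

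**Figure D4:**
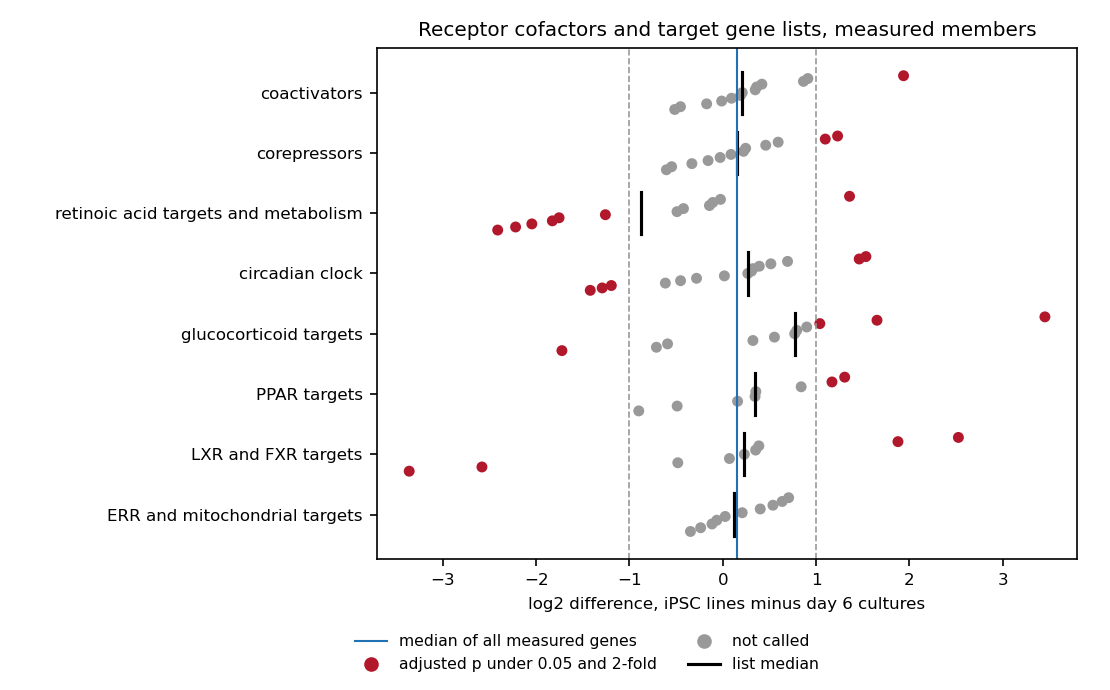
Log2 difference between iPSC lines and day 6 cultures (x axis) for the measured members of 8 lists of receptor cofactors and targets (rows; genes below the floor on all arrays are left out), with called genes in red, list medians as black bars and the median of all measured genes (0.15) as a blue line. The retinoic acid list has its median at -0.87 and 6 red points to the left of -1; the other 7 medians lie between 0.12 and 0.77.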

How the data were processed

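Per the submitters' processing notes, the authors made the deposited log2 values with RMA and Affymetrix Expression Console; versions and settings are not given in the sources used here. Base 2 was taken because RMA writes that scale. RMA usually includes quantile normalization, which hides changes in total RNA, and it shrinks differences of dim probe sets.

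Of 41345 probe sets, 23521 had 1 gene symbol, 1814 several and 16010 none listed. The probe set with the highest mean stood for each gene. Only Nr3c2 among the receptors had more than 1. A gene counted as measured when at or above the floor on 1 or more of the arrays compared.

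The iPSC and day 6 pairs were compared with limma 3.58.1 in R 4.3.3 (lmFit, eBayes with intensity trend, Benjamini-Hochberg adjustment, called at 0.05 and 2-fold), checked on simulated data. The single-array comparisons used 2-fold and no test. Other scaling, floors, fold rules, probe set choices, a fit without the trend and fits without each array were tried. "Rose" and "fell" mean called; other receptors are described by their values. Every receptor is accounted for. Of each list up to 4 called members are named, with Stra8 and Clock added after their values were seen. Members and lists were chosen with earlier results of these data known. Arrays carry no counting depth, and their number limits the precision. Upstream sequences are RefSeq's, GRCm38.p6. The genome build behind the probe sets was not stated.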

Additional observations from a re-analysis of the deposited data

How the results depend on the processing

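With the deposited values the iPSC lines had 1 receptor called higher and 6 lower than the day 6 cultures, among 1820 genes higher and 1161 lower. The higher receptor, Nr5a2, was not called under cyclic loess (0 receptors higher), without the intensity trend (0) or with no measuring floor (0); a 1.5-fold rule gave 2 higher, with 3294 and 2034 genes higher and lower and 22 list genes higher in place of 14. Leaving out each array in turn gave 0 to 1 receptors higher and 2 to 6 lower, the 2 without the Firefly array. For the day 6 cultures a 1.5-fold rule gave 480 genes higher and 330 lower in place of 111 and 27, 1 receptor lower in place of 0, and 4 list genes lower in place of 0. Between the lines it gave 757 and 483 genes in place of 258 and 121, 2 receptors higher and 1 lower in place of 0, and 4 list genes higher and 3 lower; cyclic loess gave 1 receptor higher (Vdr, as read against a value below the floor). The causes were not tested beyond what each setting changes. No called receptor changed direction under any of these settings, and Nr2f2 kept its call under all of them. A fit without 1 array leaves 1 residual degree of freedom and assumes that the lone array varies like the others. No paired analysis was possible because each condition had 1 array and the labels give no pairing between them. Signal near the floor limits Thrb, Rarb, Nr4a2, Nr1h3, Esr2, Nr3c2 and Nr5a1. It also limits Vdr through the 38 h line, and the difference of Vdr between lines and cultures was -0.45 counted from the floor.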

Other observations

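Of the nuclear receptor genes that the rule left out, 4 had a probe set of their own. Esrrb, an orphan receptor of the naive pluripotency network, read 6.14 and 7.04 in the Firefly and Sumo2 day 6 cultures and 8.50 and 8.95 in the 38 h and 10 day lines, a rise of 2.14 as read and 1.89 from the floor (SE 0.32, limma adjusted p = 0.00325) with the Firefly culture below the floor. Nr0b1, which lacks the usual DNA-binding domain and represses other receptors, read 7.73, 10.04, 11.03 and 10.63. Its difference between lines and cultures did not pass (1.95, SE 0.67, limma adjusted p = 0.0537). At day 6 Nr0b1 was 4.96-fold higher in the Sumo2 culture than in the Firefly culture, without a test, which is more than Nr5a2. The hepatic factor Hnf4a stayed near the floor, at 6.20, 6.59, 6.67 and 6.93, and Hnf4g below it on all 4 arrays.

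The GC box GGGCGG, searched on both strands, was before 27 of the 57 receptor start sites (47.4%) and before 32.7% of all starts, and the E-box CACGTG, the site of the clock activators, before 5 (8.77%) and 6.02%. The 250 bases before a receptor start held a median of 11 CG dinucleotides, against 6 for all starts, from 1 before Nr2f2 and before an Rxra start to 44 before Nr4a2.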
